A study of Mus musculus with 16 samples.

Results

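Recognition of bacterial lipopolysaccharide (LPS) through Toll-like receptor 4 was followed in the mouse heart over 10 genes. They were Tlr4, Cd14 and Ly96 of the LPS receptor complex, the receptor genes Tlr2 and Tlr3, the adaptor genes Myd88, Ticam1 and Ticam2, and the kinase family genes Irak3 and Irak2. The genes were chosen by name, with earlier results of these data known. They were found among the 55278 gene symbols of the deposited tables, and passed the filter on low counts in 10 of 10 cases, within 18713 genes tested. Hearts for RNA were from male mice on the C57BL/6J background, 8 to 12 weeks old, with 4 mice in each of 4 groups. PPARα-deficient mice, which lack PPARα in their cardiomyocytes, received LPS by intraperitoneal injection of 5 mg/kg, or the vehicle PBS (phosphate-buffered saline). Ppara-flox mice, which carry the floxed Ppara allele, received the same LPS dose or PBS. Hearts were taken after 12 h. PPARα is a nuclear receptor for fatty acid metabolism, and the series title places it in septic cardiomyopathy. The labels name no Cre line, list no group with Cre alone, and do not say from how many litters the mice came.

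Toll-like receptor 4 (TLR4) is the cell-surface sensor of LPS. The serum protein LBP passes LPS to CD14, which hands it to MD-2, the product of Ly96, and MD-2 bound to TLR4 starts signalling. At the cell surface TLR4 works through the adaptor MyD88, which assembles IRAK kinases and leads to NF-κB and inflammatory cytokines. From endosomes it works through TRIF, the product of Ticam1, with TRAM, the product of Ticam2, as the bridging adaptor, and leads to type I interferon and interferon-stimulated genes. In the heart, TLR4 is known from cardiomyocytes, endothelial cells, fibroblasts and leukocytes, and it is needed for the cardiac response to endotoxin.

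The 16 libraries held 65569134 to 75436023 estimated counts. Because low values favoured multiples of 4, the depth in read pairs was put at the totals divided by 4, 16392284 to 18859006 per library. Levels are counts per 1000000 (CPM) on library sizes scaled by TMM factors, and ± after a level is the SD over 4 libraries. The extraction protocol in the labels mentions islets, although every other label names the heart. The islet genes Ins1 and Ins2 were at 0 in all 16 libraries, and the heart gene Myh6 was at 17239 CPM or more in each. Ppara, the targeted gene, was at 14.6 ± 2.58 CPM in PPARα-deficient PBS hearts and 50.2 ± 9.86 CPM in Ppara-flox PBS hearts. It averaged 7.98 ± 3.38 CPM in PPARα-deficient LPS hearts and 11.3 ± 3.31 CPM in Ppara-flox LPS hearts, where the groups overlapped and the difference was not called (edgeR adjusted p = 0.651). The level of Ppara thus separated the genotypes in PBS hearts and did not separate them in LPS hearts. Esr1, the estrogen receptor gene, lay at 28.3 to 152 CPM in PPARα-deficient LPS hearts, 2859 to 3201 CPM in PPARα-deficient PBS hearts, and at most 0.516 CPM in every Ppara-flox library. By this transcript the genotypes were separate in both PBS and LPS hearts, and the PPARα-deficient LPS libraries differed from the PPARα-deficient PBS libraries. Every genotype comparison below sets hearts together by their labels.

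The start regions of 3 of the genes that rose after LPS are shown because each holds a motif that the pathway's own transcription factors are known to read. Promoter windows from RefSeq on GRCm38.p6, 250 bases before to 50 bases after the start, were searched for 6 of the 10 genes. Capitals mark a kappaB site, the motif of NF-κB, in Tlr2 and Tlr3, and the core of the interferon-stimulated response element in Myd88. All 3 windows lie on the minus strand and are written 5′ to 3′ along the gene, Tlr2 at chr3:83841559-83841858, Tlr3 at chr8:45410331-45410630 and Myd88 at chr9:119339969-119340268.
Tlr2: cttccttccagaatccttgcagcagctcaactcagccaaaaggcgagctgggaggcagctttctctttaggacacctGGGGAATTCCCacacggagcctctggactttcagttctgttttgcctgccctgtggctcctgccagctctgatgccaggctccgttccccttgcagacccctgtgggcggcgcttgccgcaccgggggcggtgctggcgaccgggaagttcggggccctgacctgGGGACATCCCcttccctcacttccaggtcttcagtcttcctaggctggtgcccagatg
Tlr3: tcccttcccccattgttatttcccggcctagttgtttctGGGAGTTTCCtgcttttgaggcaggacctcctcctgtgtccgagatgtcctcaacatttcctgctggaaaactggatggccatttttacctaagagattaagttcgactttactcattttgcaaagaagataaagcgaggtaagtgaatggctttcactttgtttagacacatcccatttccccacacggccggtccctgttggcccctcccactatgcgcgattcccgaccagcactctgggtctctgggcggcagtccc
Myd88: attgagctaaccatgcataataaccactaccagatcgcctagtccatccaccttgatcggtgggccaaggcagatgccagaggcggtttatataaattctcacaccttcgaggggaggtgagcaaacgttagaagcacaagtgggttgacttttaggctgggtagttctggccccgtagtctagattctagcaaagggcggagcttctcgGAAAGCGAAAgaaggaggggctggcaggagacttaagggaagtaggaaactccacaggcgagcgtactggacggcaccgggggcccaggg

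Counted from the 5′ end of the window, the kappaB letters of Tlr2 covered bases 78 to 88, as 2 overlapping forward matches and 1 match on the opposite strand, and again bases 243 to 252. In Tlr3 they covered bases 40 to 49, and the response element core of Myd88 covered bases 211 to 220. Both strands were searched in 32851 windows of the same length. A kappaB match was present in 4.51% of them, the response element core in 3.44%, and the AP-1 motif TGANTCA in 7.81%. The windows of Irak2, Ticam1 and Irak3, the last with 2 windows, held none of these letters. The matches describe sequence only. No window of the other 4 genes, Tlr4, Cd14, Ly96 and Ticam2, was searched. For the 10 genes the search left out chromosome 18, which holds Cd14 and Ticam2.

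Of the LPS receptor complex, Cd14 rose after LPS in both genotypes, while Tlr4 and Ly96 did not pass the test in either. Cd14 encodes the co-receptor that binds LPS and delivers it to the receptor (chromosome 18, 36725067 to 36726798, minus strand, GRCm38). It was at 21.1, 24.4, 22.5 and 28.1 CPM in PPARα-deficient LPS hearts, against 9.09, 9.79, 11.5 and 9.42 CPM in PPARα-deficient PBS hearts. All 4 treated PPARα-deficient hearts lay above all 4 PBS hearts of that genotype, a rise of 1.27 ± 0.22 on the log2 scale (SE, edgeR adjusted p = 0.000226). In Ppara-flox hearts Cd14 was at 19.5, 13.6, 17.6 and 10.6 CPM after LPS, against 13.0, 9.08, 5.4 and 8.57 CPM after PBS. These groups overlapped through the lowest LPS and the highest PBS library, and the rise was 0.76 ± 0.22 (edgeR adjusted p = 0.0107).

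Tlr4 encodes the signalling receptor itself (chromosome 4, 66827584 to 66930284, plus strand). It was at 11.1, 2.32, 3.83 and 11.1 CPM in PPARα-deficient LPS hearts, against 13.1, 14.7, 14.8 and 12.6 CPM in PPARα-deficient PBS hearts. The groups did not overlap, but the spread among LPS hearts was wide and the difference, -0.96 ± 0.63 on the log2 scale, was not called (edgeR adjusted p = 0.254). The values of Ppara-flox mice were 14.9, 13.8, 13.8 and 3.49 CPM in LPS hearts, against 15.8, 2.0, 2.18 and 13.4 CPM in PBS hearts. High and low libraries stood in both of these groups, and the difference of 0.46 ± 0.63 was not called (edgeR adjusted p = 0.606). The 16 Tlr4 values thus fell into separate ranges, 5 libraries at 2.0 to 3.83 CPM and 11 at 11.1 to 15.8 CPM, with none between. The low libraries came from 3 of the 4 groups, all but PPARα-deficient PBS. The SD of Tlr4 within groups was 1.11 on the log2 scale, and 0.756% of the 2250 tested genes within 0.5 of its mean log2 level had a larger one.

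Ly96 encodes MD-2, the small protein that holds LPS in the receptor complex (chromosome 1, 16688051 to 16709611, plus strand). It was low in every library, between 0.439 and 1.85 CPM. It averaged 1.33 ± 0.290 CPM in PPARα-deficient LPS hearts and 1.27 ± 0.357 CPM in PPARα-deficient PBS hearts. Ppara-flox hearts averaged 1.3 ± 0.564 CPM after LPS and 1.16 ± 0.570 CPM after PBS. The LPS differences, 0.07 ± 0.40 in PPARα-deficient and 0.17 ± 0.41 in Ppara-flox hearts, were smaller than their standard errors (edgeR adjusted p = 0.918 and 0.781). At 30 to 142 estimated counts per library, a modest change of Ly96 was not detectable at this depth.

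**Figure D1:**
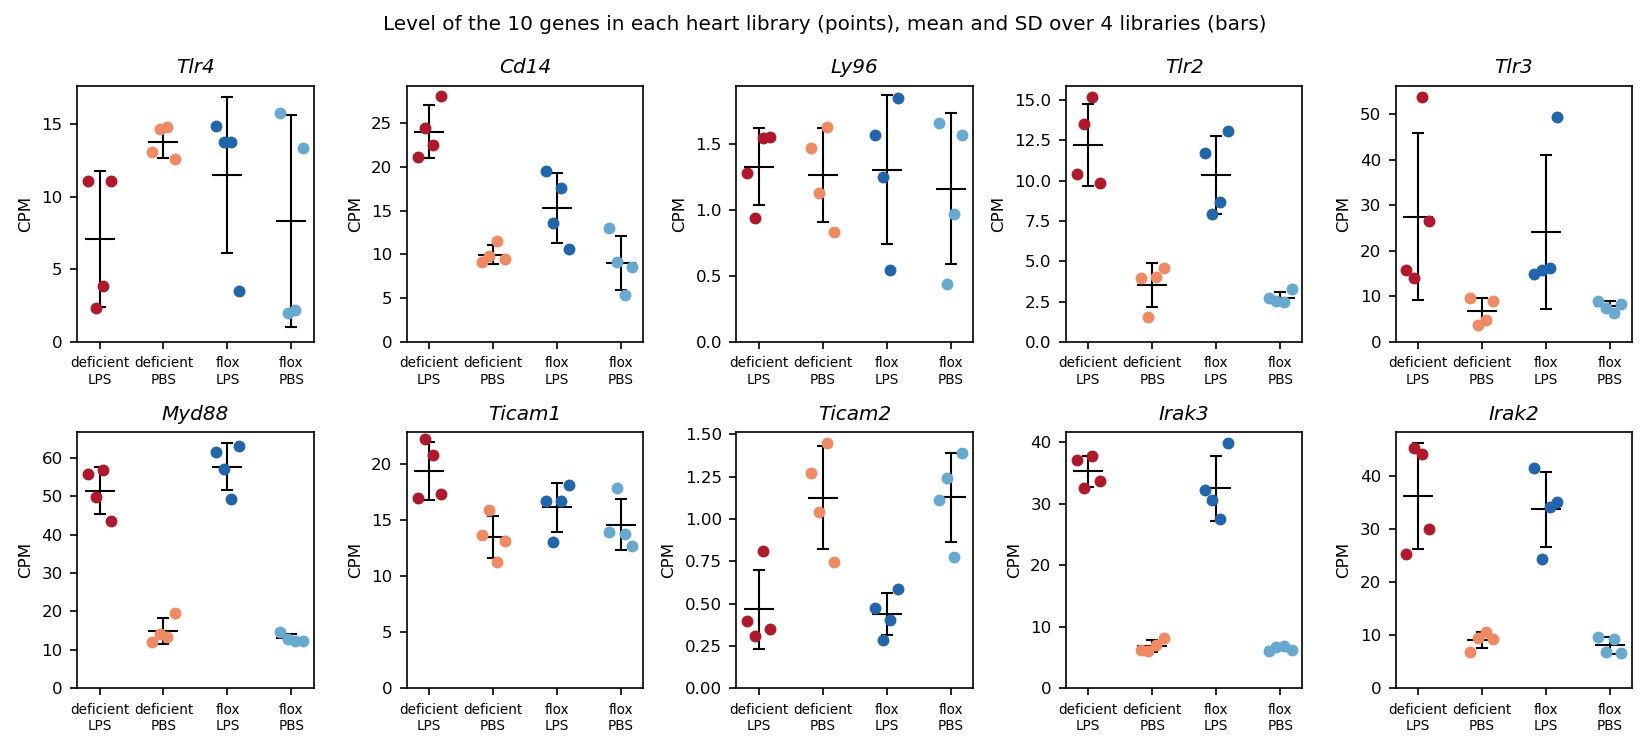
Level of each of the 10 genes in CPM, from 0, in each of the 16 heart libraries (points), with the mean and SD over 4 libraries (bars). Irak3, Irak2, Myd88 and Tlr2 stand higher in LPS than in PBS hearts with no overlap in either genotype, Tlr4 lies in separate high and low ranges, and Tlr3 has 1 library far above the rest in each LPS group.

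Both other receptor genes rose after LPS in both genotypes. Tlr2 encodes a surface receptor for bacterial lipoproteins (chromosome 3, 83836272 to 83841767, minus strand). It was at 10.4, 13.5, 15.2 and 9.85 CPM in PPARα-deficient LPS hearts, against 3.97, 1.56, 4.05 and 4.6 CPM in PPARα-deficient PBS hearts. Among Ppara-flox hearts it was at 11.7, 7.96, 8.67 and 13.1 CPM after LPS, against 2.70, 2.51, 2.48 and 3.29 CPM after PBS. The groups were apart in both genotypes, by 1.79 ± 0.27 on the log2 scale in PPARα-deficient hearts (edgeR adjusted p = 5.96e-05) and by 1.92 ± 0.27 in Ppara-flox hearts (edgeR adjusted p = 3.1e-05).

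Tlr3 encodes the endosomal receptor for double-stranded RNA, which signals through TRIF alone and does not bind LPS (chromosome 8, 45395665 to 45411080, minus strand). It was at 15.7, 14, 53.7 and 26.5 CPM in PPARα-deficient LPS hearts, against 9.65, 3.59, 4.83 and 8.9 CPM in PPARα-deficient PBS hearts. Ppara-flox LPS hearts had 15, 15.7, 16.2 and 49.4 CPM, against 8.98, 7.49, 6.24 and 8.33 CPM in Ppara-flox PBS hearts. Each LPS library stood above each PBS library of its genotype, and 1 library in each LPS group, PPARα-deficient replicate 3 and Ppara-flox replicate 4, stood far above its own group. The rise was 2.03 ± 0.47 on the log2 scale in PPARα-deficient hearts (edgeR adjusted p = 0.00247) and 1.63 ± 0.46 in Ppara-flox hearts (edgeR adjusted p = 0.00967). Without Ppara-flox LPS replicate 4 the rise in Ppara-flox hearts was 1.00 ± 0.40 and the call was lost (edgeR adjusted p = 0.0616). With both of these libraries left out the rise was 1.47 ± 0.29 in PPARα-deficient hearts (edgeR adjusted p = 0.00123) and 1.01 ± 0.29 in Ppara-flox hearts (edgeR adjusted p = 0.0148).

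Among the adaptors, Myd88 rose several-fold, Ticam1 passed the test in PPARα-deficient hearts and not in Ppara-flox hearts, and Ticam2 fell. Myd88 encodes the adaptor that the surface Toll-like receptors and the interleukin-1 receptor share (chromosome 9, 119335934 to 119341411, minus strand). It was at 55.8, 49.8, 56.7 and 43.4 CPM in PPARα-deficient LPS hearts, against 12.0, 14.1, 13.4 and 19.7 CPM in PPARα-deficient PBS hearts. The values of Ppara-flox mice were 61.5, 57.0, 49.2 and 63.1 CPM in LPS hearts, against 14.6, 12.9, 12.4 and 12.4 CPM in PBS hearts. The lowest LPS library was thus above the highest PBS library by a wide margin in both genotypes, a 3.48-fold rise in PPARα-deficient hearts (log2 1.80 ± 0.14, edgeR adjusted p = 6.14e-08) and a 4.41-fold rise in Ppara-flox hearts (log2 2.14 ± 0.14, edgeR adjusted p = 1.07e-08). Exons of Myd88 share 290 bases, 11.3% of its exon length, with Acaa1a on the opposite strand, and the strand setting of the counting is not given in the sources used here. Acaa1a was not called after LPS, at -0.07 ± 0.08 in PPARα-deficient and -0.10 ± 0.08 in Ppara-flox hearts (edgeR adjusted p = 0.554 and 0.378).

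Ticam1, the TRIF gene (chromosome 17, 56269319 to 56276786, minus strand), was at 17.0, 22.3, 20.8 and 17.4 CPM in PPARα-deficient LPS hearts, against 13.7, 15.9, 11.3 and 13.2 CPM in PPARα-deficient PBS hearts. The groups did not overlap, and the rise of 0.52 ± 0.14 on the log2 scale was called (edgeR adjusted p = 0.00768). Among Ppara-flox hearts it was at 16.7, 13.1, 16.7 and 18.2 CPM after LPS, against 14, 17.9, 13.8 and 12.7 CPM after PBS. Here the groups overlapped and 0.15 ± 0.14 was not called (edgeR adjusted p = 0.424). The LPS effects of the genotypes were not shown to differ, with a difference of 0.36 ± 0.20 (edgeR adjusted p = 0.919). Ticam2, the TRAM gene (chromosome 18, 46557291 to 46574533, minus strand), averaged 0.466 ± 0.234 CPM in PPARα-deficient LPS hearts and 1.12 ± 0.304 CPM in PPARα-deficient PBS hearts. Ppara-flox hearts averaged 0.438 ± 0.126 CPM after LPS and 1.13 ± 0.264 CPM after PBS. The fall was 1.27 ± 0.36 in PPARα-deficient hearts, where the highest LPS library overlapped the lowest PBS library (log2 -1.27, edgeR adjusted p = 0.0106), and 1.36 ± 0.36 in Ppara-flox hearts, where the groups were apart (log2 -1.36, edgeR adjusted p = 0.00666). These values rest on 20 to 105 estimated counts per library, and 14.5% of the exon length of Ticam2, 838 bases, is shared with Tmed7 on the same strand, so its level is uncertain. Tmed7 was far higher, with group means of 51.3 to 59.4 CPM. After LPS it was not called, at -0.21 ± 0.10 in PPARα-deficient and 0.07 ± 0.10 in Ppara-flox hearts (edgeR adjusted p = 0.125 and 0.638).

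The IRAK genes rose about as much as Myd88, except that Irak3 rose by more than Myd88 in PPARα-deficient hearts. Irak3 encodes IRAK-M, known as an inhibitor that keeps the other IRAK proteins from leaving the receptor (chromosome 10, 120141648 to 120202130, minus strand). It was at 37.1, 32.6, 37.7 and 33.7 CPM in PPARα-deficient LPS hearts, against 6.15, 6.13, 7.07 and 8.16 CPM in PPARα-deficient PBS hearts. Ppara-flox LPS hearts had 32.2, 30.6, 27.5 and 39.9 CPM, against 6.14, 6.74, 6.91 and 6.29 CPM in Ppara-flox PBS hearts. Irak3 had the highest LPS fold of the 10 genes in both genotypes and a narrow spread, with a 5.13-fold rise in PPARα-deficient hearts (log2 2.36 ± 0.12, edgeR adjusted p = 1.06e-09) and a 4.99-fold rise in Ppara-flox hearts (log2 2.32 ± 0.12, edgeR adjusted p = 1.14e-09). Its exons share 192 bases, 5.22% of their length, with Tmbim4 on the opposite strand, which was not called in either genotype (edgeR adjusted p = 0.287 in PPARα-deficient and 0.156 in Ppara-flox hearts).

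Irak2 encodes a kinase family member that sustains signalling downstream of MyD88 (chromosome 6, 113638467 to 113695026, plus strand). It was at 25.3, 45.2, 44.0 and 30.0 CPM in PPARα-deficient LPS hearts, against 6.89, 9.42, 10.5 and 9.26 CPM in PPARα-deficient PBS hearts. The values of Ppara-flox mice were 41.4, 24.3, 34.0 and 35 CPM in LPS hearts, against 9.57, 6.74, 9.33 and 6.67 CPM in PBS hearts. The groups were apart in both genotypes, by 2.0 ± 0.21 on the log2 scale in PPARα-deficient hearts (edgeR adjusted p = 1.56e-06) and by 2.06 ± 0.21 in Ppara-flox hearts (edgeR adjusted p = 1.12e-06).

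**Figure D2:**
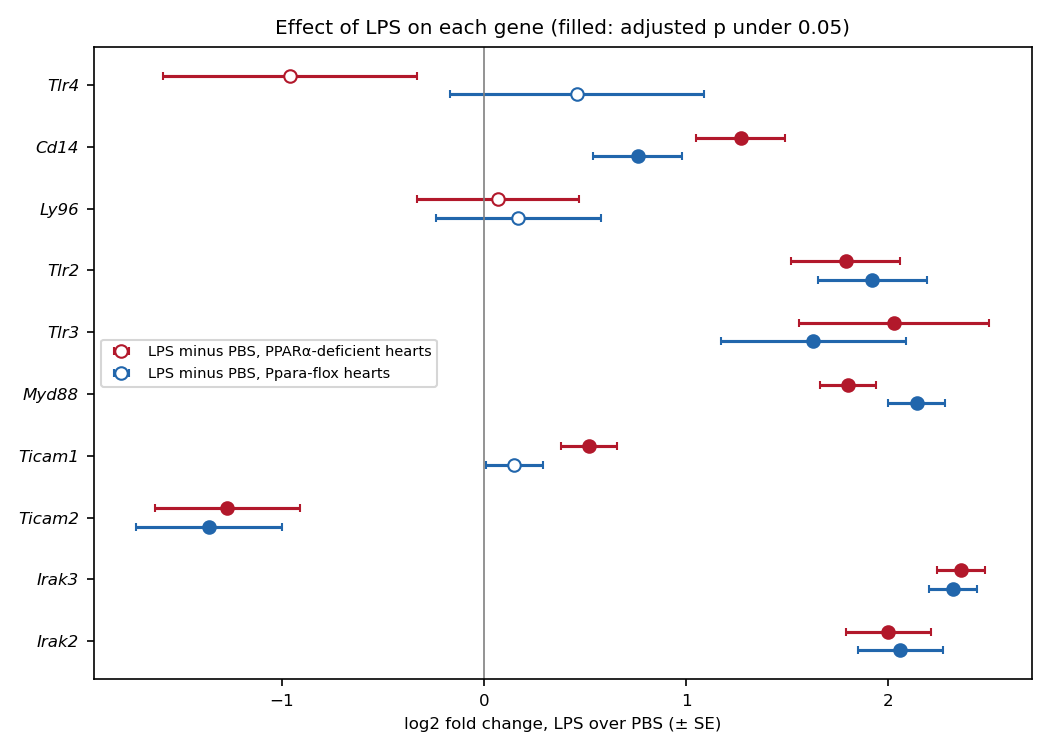
Log2 fold change after LPS over PBS of each gene (points, with SE) in PPARα-deficient hearts (red) and Ppara-flox hearts (blue), filled where the edgeR adjusted p was under 0.05. Irak3 lies furthest to the right at 2.36 and 2.32, Ticam2 furthest to the left of the called genes, and Tlr4 has the widest error bars.

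Counted together, 7 of the 10 genes rose and 1 fell in PPARα-deficient hearts, where 19.4% of all tested genes rose and 18.3% fell. In Ppara-flox hearts 6 rose and 1 fell, where 20.2% of all tested genes rose and 19.1% fell. Because the genes were chosen with earlier results of these data known, these shares are a description only. The median LPS effect of the 10 genes was 1.53 on the log2 scale in PPARα-deficient hearts and 1.20 in Ppara-flox hearts, and the median over all tested genes was 0.01 in each. Groups did not overlap in the higher direction for 7 of the 10 genes in PPARα-deficient hearts (19.5% of all tested genes) and for 5 in Ppara-flox hearts (19.2%). In the lower direction they did not overlap for Tlr4 in PPARα-deficient hearts and for Ticam2 in Ppara-flox hearts (18.4% of all tested genes in each). LPS treatment cannot be told apart from the sample numbering in the table headers, since all LPS libraries carry higher numbers than all PBS libraries.

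Levels were also set per length, as CPM per kilobase of merged exons. In LPS hearts Myd88 stood highest, at 20 ± 2.39 in PPARα-deficient and 22.4 ± 2.42 in Ppara-flox hearts. In PPARα-deficient LPS hearts it was followed by Cd14 at 13.9 ± 1.77, Irak3 at 9.59 ± 0.682 and Irak2 at 8.19 ± 2.26, where the last 2 were within their spread. In Ppara-flox LPS hearts Cd14 at 8.85 ± 2.31, Irak3 at 8.85 ± 1.44 and Irak2 at 7.63 ± 1.60 followed together, within their spread. Tlr4 was at 1.27 ± 0.838 in PPARα-deficient and 2.07 ± 0.966 in Ppara-flox LPS hearts, Ly96 at 1.3 ± 0.284 and 1.28 ± 0.553, and Ticam2 was lowest in both, at 0.0805 ± 0.0404 and 0.0757 ± 0.0218. The other adaptor and the IRAK transcripts thus exceeded Tlr4 and Ly96 per length in LPS hearts of both genotypes. In PBS hearts Cd14, Myd88 and Ticam1 stood together at the top, at 5.74 ± 0.605, 5.74 ± 1.32 and 4.52 ± 0.638 in PPARα-deficient and at 5.21 ± 1.81, 5.08 ± 0.393 and 4.87 ± 0.757 in Ppara-flox hearts. Next in PPARα-deficient PBS hearts were Tlr4 at 2.49 ± 0.204, Irak2 at 2.04 ± 0.346 and Irak3 at 1.87 ± 0.261, each overlapping its neighbour within the SD. In Ppara-flox PBS hearts Irak2 at 1.83 ± 0.360, Irak3 at 1.77 ± 0.0989, Tlr4 at 1.5 ± 1.31 and Tlr3 at 1.49 ± 0.227 came next, all within the SD of Tlr4.

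Many of these genes are expressed by leukocytes as well as by cells of the heart, and in whole tissue a change in the number of cells of a type and a change in RNA per cell cannot be told apart. Markers of neutrophils, monocytes, resident macrophages, fibroblasts and cardiomyocytes moved with LPS. The counts of markers below stand against all tested genes, of which 19.4% rose and 18.3% fell in PPARα-deficient hearts. In Ppara-flox hearts 20.2% of all tested genes rose and 19.1% fell. The summed level of 10 neutrophil markers was 26.6 to 31.5 CPM in PPARα-deficient LPS hearts and 1.32 to 8.96 CPM in PPARα-deficient PBS hearts. In Ppara-flox hearts it was 21.1 to 47.4 CPM after LPS and 2.46 to 3.63 CPM after PBS. Of the 8 markers tested, 7 rose in PPARα-deficient and 6 in Ppara-flox hearts. The defining markers Ly6g and Mpo were too low to be tested and were at 0 in all PBS libraries. They averaged 0.147 and 0.178 CPM in PPARα-deficient LPS hearts and 0.088 and 0.127 CPM in Ppara-flox LPS hearts, levels near 3 read pairs per library. The 6 monocyte markers summed to 39.3 to 45.2 CPM in PPARα-deficient LPS hearts and 7.24 to 12.7 CPM in PPARα-deficient PBS hearts, with 28.3 to 38.1 CPM in Ppara-flox LPS hearts and 8.99 to 11.1 CPM in Ppara-flox PBS hearts. Of these 6 markers 5 rose in each genotype, and Ccr2 fell in PPARα-deficient hearts, by 1.65 ± 0.58 on the log2 scale (log2 -1.65, edgeR adjusted p = 0.0325). The 11 resident macrophage markers summed to 183 to 249 CPM in PPARα-deficient LPS hearts and 260 to 293 CPM in PPARα-deficient PBS hearts, with 162 to 216 CPM in Ppara-flox LPS hearts and 212 to 286 CPM in Ppara-flox PBS hearts. Of these 11 markers 1 rose and 5 fell in PPARα-deficient hearts, and 1 rose and 6 fell in Ppara-flox hearts. The 6 cardiomyocyte markers summed to 34428 to 39770 CPM in PPARα-deficient LPS hearts and 55628 to 61321 CPM in PPARα-deficient PBS hearts, with 30601 to 36434 CPM in Ppara-flox LPS hearts and 60112 to 65706 CPM in Ppara-flox PBS hearts. Of these 6 markers 4 fell in PPARα-deficient and 6 in Ppara-flox hearts. Of 7 fibroblast markers 1 rose and 5 fell in each genotype, with summed levels that overlapped between LPS and PBS hearts. Of 7 endothelial cell markers 1 rose and 2 fell in each genotype. Of 4 B cell markers tested 1 fell in Ppara-flox hearts and 0 were called in PPARα-deficient hearts. Of 3 T and natural killer cell markers tested 0 were called in either genotype. The part of any of these cell types in the rises of Cd14, Tlr2, Myd88, Irak3 and Irak2 was not tested.

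The profile nearest to that of Cd14 over the 16 libraries was that of Cxcl16, at a root mean square difference of 0.30 between centred log2 levels, among 10010 genes compared. Pla2g7 at 0.31, Tk2 at 0.32 and Slc2a1 and Acot9 at 0.33 came next, against 0.65 for the deviation of Cd14 from its own mean. None of the 10010 genes compared came near to Tlr4 in this measure. Its nearest profiles, Gpx3 and Hspa1b at 0.90, Pja1 at 0.93 and Ppp1r12a and Armcx4 at 0.94, were hardly closer than its own mean, from which Tlr4 deviated by 1.10.

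**Figure D3:**
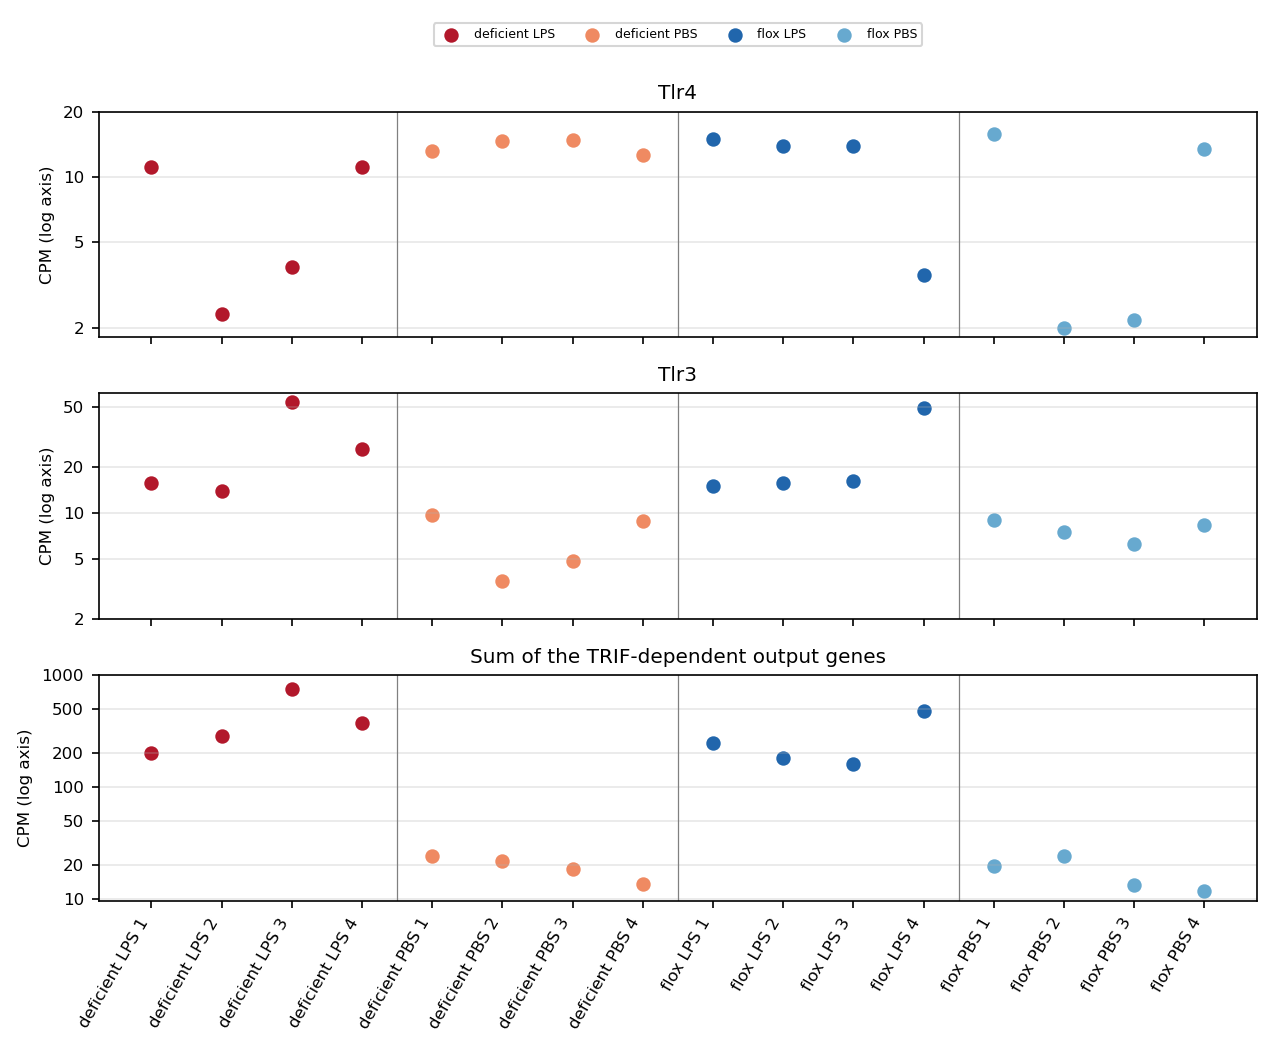
CPM on log axes of Tlr4, of Tlr3 and of the summed TRIF-dependent output genes in each of the 16 libraries, numbered by replicate within the groups. Ppara-flox LPS replicate 4 is low for Tlr4 at 3.49 CPM and high for Tlr3 at 49.4 CPM and for the output sum at 481 CPM, and PPARα-deficient LPS replicate 3 is low for Tlr4 at 3.83 CPM and highest in both other panels. PPARα-deficient LPS replicate 2 is lowest of its group for Tlr4 at 2.32 CPM and also for Tlr3 at 14 CPM, with an output sum of 286 CPM.

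The libraries with the highest Tlr3 also had the highest summed level of the TRIF-dependent output genes Cxcl10, Ccl5, Ifit1, Isg15 and Irf7. This sum was 201, 286, 746 and 374 CPM in PPARα-deficient LPS hearts, against 24.3, 21.9, 18.3 and 13.6 CPM in PPARα-deficient PBS hearts. In Ppara-flox hearts it was 248, 182, 159 and 481 CPM after LPS, against 19.5, 24.0, 13.2 and 11.8 CPM after PBS. The sum of the MyD88-dependent output genes did not single out these libraries. It was 77.1, 117, 113 and 86.7 CPM in PPARα-deficient LPS hearts and 7.15, 6.66, 8.75 and 18.1 CPM in PPARα-deficient PBS hearts. In Ppara-flox hearts it was 111, 92.2, 82.4 and 102 CPM after LPS and 8.09, 5.64, 6.02 and 6.94 CPM after PBS.

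The genotypes were compared next, to ask whether loss of cardiomyocyte PPARα went with another level of LPS sensing. In PBS hearts 0 of the 10 genes were called by edgeR, 0 had an unadjusted p under 0.05, and DESeq2 and limma-voom called 0, where 0.433% of all tested genes were called. The differences ran from -0.20 for Tlr3 to 0.73 ± 0.63 on the log2 scale for Tlr4. In LPS hearts edgeR, DESeq2 and limma-voom again called 0, where edgeR called 1.23% of all tested genes. An unadjusted p under 0.05 was found for 1 of the 10 genes, Cd14, and for 1709 of all 18713 tested genes. Cd14 was at 24.0 ± 3.06 CPM in PPARα-deficient LPS hearts and 15.3 ± 4.01 CPM in Ppara-flox LPS hearts. All 4 PPARα-deficient LPS hearts, at 21.1 CPM or more, lay above all 4 Ppara-flox LPS hearts, at 19.5 CPM or less, as was so for 2.53% of all tested genes. The difference of 0.65 ± 0.22 did not pass the correction (unadjusted p = 0.00877, edgeR adjusted p = 0.261, and 0.13 to 0.498 when each library in turn was left out). Monocyte markers summed to 39.3 to 45.2 CPM in PPARα-deficient LPS hearts and 28.3 to 38.1 CPM in Ppara-flox LPS hearts, and resident macrophage markers to 183 to 249 CPM and 162 to 216 CPM. Of these 17 markers edgeR called 0 between the genotypes. An unadjusted p under 0.05 was found for 6 of the 17, a larger share than the 1709 of all 18713 tested genes. Their part in the Cd14 difference was not tested. In PBS hearts Cd14 was at 9.94 ± 1.05 CPM in PPARα-deficient and 9.02 ± 3.13 CPM in Ppara-flox mice, a difference of 0.14 ± 0.22 (edgeR adjusted p = 1).

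The difference between the LPS effects of the genotypes was tested as an interaction. It was called by edgeR for 0 of the 10 genes and for 0% of all tested genes, no member had an unadjusted p under 0.05, and DESeq2 and limma-voom called 0 members. The widest was that of Tlr4, -1.42 ± 0.89 on the log2 scale (edgeR adjusted p = 0.963), followed by Cd14 at 0.51 ± 0.31 (edgeR adjusted p = 0.955), Tlr3 at 0.39 ± 0.64 (edgeR adjusted p = 0.999), Ticam1 at 0.36 ± 0.20 and Myd88 at -0.34 ± 0.19 (edgeR adjusted p = 0.923). For Irak3 it was 0.04 ± 0.17 and for Irak2 -0.06 ± 0.29 (edgeR adjusted p = 0.999 each). The standard error of this difference was narrowest for Irak3 and widest for Tlr4, so a like difference between genotypes would be seen far less readily for Tlr4.

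The rest of the pathway was read from 6 lists, which were also chosen with earlier results of these data known. LPS handling and receptor chaperones gave 3 of 8 genes higher in each genotype (37.5%, where 19.4% of all tested genes rose in PPARα-deficient and 20.2% in Ppara-flox hearts), with a median of 0.27 on the log2 scale in PPARα-deficient and 0.16 in Ppara-flox hearts. Lbp, which carries LPS to CD14, averaged 34.3 ± 4.52 CPM in PPARα-deficient LPS hearts and 5.26 ± 0.958 CPM in PPARα-deficient PBS hearts. In Ppara-flox hearts it averaged 34.6 ± 6.05 CPM after LPS and 5.70 ± 0.426 CPM after PBS, so that Lbp rose by 2.70 ± 0.15 and 2.60 ± 0.15 on the log2 scale in PPARα-deficient and Ppara-flox hearts (edgeR adjusted p = 2.73e-09 and 3.53e-09). Aoah, the enzyme that removes fatty acids from LPS and so inactivates it, rose by 2.62 ± 0.30 in PPARα-deficient and 2.23 ± 0.30 in Ppara-flox hearts. Cnpy3, a chaperone of Toll-like receptors, rose by 0.49 ± 0.13 in PPARα-deficient and 0.38 ± 0.13 in Ppara-flox hearts, where the call (edgeR adjusted p = 0.0251) was lost without Ppara-flox PBS replicate 1 or Ppara-flox LPS replicate 1 or 3, with an adjusted p of up to 0.0897. Hsp90b1, the chaperone that folds them, was at -0.13 ± 0.15 in PPARα-deficient and -0.38 ± 0.15 in Ppara-flox hearts and was not called (edgeR adjusted p = 0.552 and 0.0649).

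Of the other Toll-like receptors 7 of 8 were tested, all but Tlr12, with medians of 0.72 in PPARα-deficient and 0.51 in Ppara-flox hearts. In PPARα-deficient hearts 0 were called by edgeR, where 19.4% of all tested genes rose and 18.3% fell. An unadjusted p under 0.05 was found for 2 of the 7, and for 8548 of all 18713 tested genes. In Ppara-flox hearts 3 of 7 rose (42.9%, against 20.2% of all tested genes). They were Tlr1 at 1.40 ± 0.53, Tlr7 at 0.93 ± 0.32 and Tlr13 at 0.94 ± 0.33 (edgeR adjusted p = 0.045, 0.028 and 0.03). Tlr1 pairs with TLR2, and Tlr7 and Tlr13 encode endosomal receptors for RNA. These calls rest on low levels, 1.18 ± 0.400 CPM after LPS and 0.445 ± 0.239 CPM after PBS for Tlr1, and were lost without any 1 of 9 libraries for Tlr1, of 6 for Tlr7 and of 4 for Tlr13, with adjusted p of up to 0.125, 0.116 and 0.124. Their values in PPARα-deficient hearts were 1.05 ± 0.52, 0.80 ± 0.31 and 0.72 ± 0.32.

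Downstream of the adaptors 5 of 19 signalling genes rose in PPARα-deficient hearts (26.3%, near the 19.4% of all tested genes) and 7 in Ppara-flox hearts (36.8%, against 20.2% of all tested genes), with medians of 0.04 and 0.14. Ikbke, the inducible IκB kinase relative that works beside TBK1 below TRIF, was at 21.9 ± 3.25 CPM in PPARα-deficient LPS hearts and 1.45 ± 0.112 CPM in PPARα-deficient PBS hearts. In Ppara-flox hearts it was at 18.2 ± 3.31 CPM after LPS and 1.39 ± 0.547 CPM after PBS. It rose by 3.91 ± 0.24 in PPARα-deficient and 3.71 ± 0.24 in Ppara-flox hearts (edgeR adjusted p = 4.8e-09 and 7.34e-09), and Tbk1 by 1.19 ± 0.15 and 1.23 ± 0.15. Tirap, the adaptor that brings MyD88 to the receptor, rose by 0.79 ± 0.14 in PPARα-deficient and 1.13 ± 0.14 in Ppara-flox hearts. Chuk, an IκB kinase subunit, rose by 0.57 ± 0.12 in Ppara-flox hearts and was at 0.31 ± 0.12 in PPARα-deficient hearts, without a call (edgeR adjusted p = 0.06). The count of 5 in PPARα-deficient hearts was 3 without PPARα-deficient LPS replicate 3 or PPARα-deficient PBS replicate 1 or 2, which lost Ripk1 and Ube2v1.

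Negative regulators of Toll-like receptor signalling gave 4 of 10 tested genes higher and 1 lower in each genotype, where 19.4% of all tested genes rose and 18.3% fell in PPARα-deficient hearts and 20.2% rose and 19.1% fell in Ppara-flox hearts. The list had medians of 0.38 in PPARα-deficient and 0.36 in Ppara-flox hearts. Sarm1 was not tested. Tnfaip3, which encodes the ubiquitin-editing enzyme A20, was at 39.6 ± 11.2 CPM in PPARα-deficient LPS hearts and 3.72 ± 0.397 CPM in PPARα-deficient PBS hearts, with 35.3 ± 4.88 CPM in Ppara-flox LPS hearts and 3.12 ± 0.892 CPM in Ppara-flox PBS hearts. It rose by 3.41 ± 0.22 in PPARα-deficient and 3.49 ± 0.22 in Ppara-flox hearts (edgeR adjusted p = 8.65e-09 and 6.54e-09). Socs1, a feedback inhibitor of cytokine signalling, rose by 4.22 ± 0.41 in PPARα-deficient and 3.67 ± 0.40 in Ppara-flox hearts, and Tnip1, a partner of A20, by 1.00 ± 0.11 and 1.06 ± 0.11. Dusp1, a phosphatase of MAP kinases, rose by 0.96 ± 0.13 in PPARα-deficient and 0.42 ± 0.13 in Ppara-flox hearts, where the call was lost without Ppara-flox LPS replicate 3 (0.30, edgeR adjusted p = 0.073). Sigirr, an inhibitory member of the receptor family named here after its values were seen, fell to 2.17 ± 0.325 CPM in PPARα-deficient LPS hearts, against 5.35 ± 1.59 CPM in PPARα-deficient PBS hearts. It fell to 2.77 ± 1.15 CPM in Ppara-flox LPS hearts, against 5.67 ± 0.525 CPM in Ppara-flox PBS hearts (edgeR adjusted p = 0.001 in PPARα-deficient and 0.00527 in Ppara-flox hearts).

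Most genes listed as outputs of the MyD88 and TRIF branches rose, and which branch or other signal raised them was not tested. Of the MyD88-dependent output genes 5 of 7 rose in PPARα-deficient hearts (71.4%, against 19.4% of all tested genes), with a median of 3.15. In Ppara-flox hearts 6 of 7 rose (85.7%, against 20.2% of all tested genes), with a median of 3.55. Tnf, the tumour necrosis factor gene, was uncalled at 1.92 ± 0.81 in PPARα-deficient and 2.03 ± 0.83 in Ppara-flox hearts, and Il1b, the interleukin 1 beta gene, was uncalled in PPARα-deficient hearts at 0.57 ± 0.55 (edgeR adjusted p = 0.0728, 0.0619 and 0.455). Without PPARα-deficient PBS replicate 4 both were called in PPARα-deficient hearts, Tnf at 3.01 and Il1b at 1.39 (edgeR adjusted p = 0.0119 and 0.0456). That library had a neutrophil marker sum of 8.96 CPM, against 1.32 to 2.35 CPM in the rest of its group. Its sum of the MyD88-dependent output genes was 18.1 CPM, against 6.66 to 8.75 CPM. The part of this library in the other LPS effects of PPARα-deficient hearts on this list is not described here. The Il1b call in Ppara-flox hearts was lost without any 1 of 4 libraries, with an edgeR adjusted p of up to 0.063. With libraries left out, the count of the 7 genes called higher ran from 5 to 7 in each genotype. Nfkbiz, a cofactor of NF-κB, was at 48.4 ± 12.1 CPM in PPARα-deficient LPS hearts and 5.46 ± 1.03 CPM in PPARα-deficient PBS hearts, with 51.7 ± 5.63 CPM in Ppara-flox LPS hearts and 4.40 ± 1.11 CPM in Ppara-flox PBS hearts. The neutrophil chemokine gene Cxcl1 rose by 4.33 ± 0.60 in PPARα-deficient and 5.38 ± 0.64 in Ppara-flox hearts, and Cxcl2 by 4.53 ± 0.56 and 4.96 ± 0.60. Il6, the interleukin 6 gene named here after its values were seen, was at 2.77 to 4.58 CPM in Ppara-flox LPS hearts and at 0 in all 4 Ppara-flox PBS libraries, at least 21.1-fold higher after LPS when PBS hearts are put at the floor of 3 read pairs per library, 0.175 CPM. With Il6 at that bound the list's median in Ppara-flox hearts was again 3.55. In PPARα-deficient hearts Il6 was at 3.69 to 7.17 CPM after LPS and 0 to 0.804 CPM after PBS, with 1 library at 0. The rise there was 4.19 ± 0.72 (edgeR adjusted p = 0.000382). Between the genotypes in PBS hearts Il6 was not called (edgeR unadjusted p = 0.000402, adjusted p = 0.0745). No fold is given for that difference, because all Ppara-flox PBS libraries were at 0. Ptgs2, which encodes cyclooxygenase 2, rose by 1.82 ± 0.33 in PPARα-deficient and 2.61 ± 0.34 in Ppara-flox hearts. Of the TRIF-dependent output genes 5 of 5 tested rose in each genotype (100%, against 19.4% of all tested genes in PPARα-deficient and 20.2% in Ppara-flox hearts). Their medians were 4.33 in PPARα-deficient and 4.01 in Ppara-flox hearts, while Ifnb1, the interferon beta gene, was at 0 in all 16 libraries. Irf7, the transcription factor of interferon induction, rose by 4.25 ± 0.43 in PPARα-deficient and 4.01 ± 0.42 in Ppara-flox hearts, Ifit1 by 4.33 ± 0.46 and 3.85 ± 0.45, and Cxcl10 by 5.94 ± 0.68 and 5.47 ± 0.68. The chemokine gene Ccl5 was at 24.7 ± 17.2 CPM in PPARα-deficient LPS hearts and 0.112 ± 0.0947 CPM in PPARα-deficient PBS hearts, with 15.9 ± 5.74 CPM in Ppara-flox LPS hearts and 0.222 ± 0.118 CPM in Ppara-flox PBS hearts. Of the 56 genes tested on these 6 lists, edgeR called 0 between the genotypes in PBS hearts, in LPS hearts or in the interaction, with an unadjusted p under 0.05 for 3, 4 and 3 of them.

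**Figure D4:**
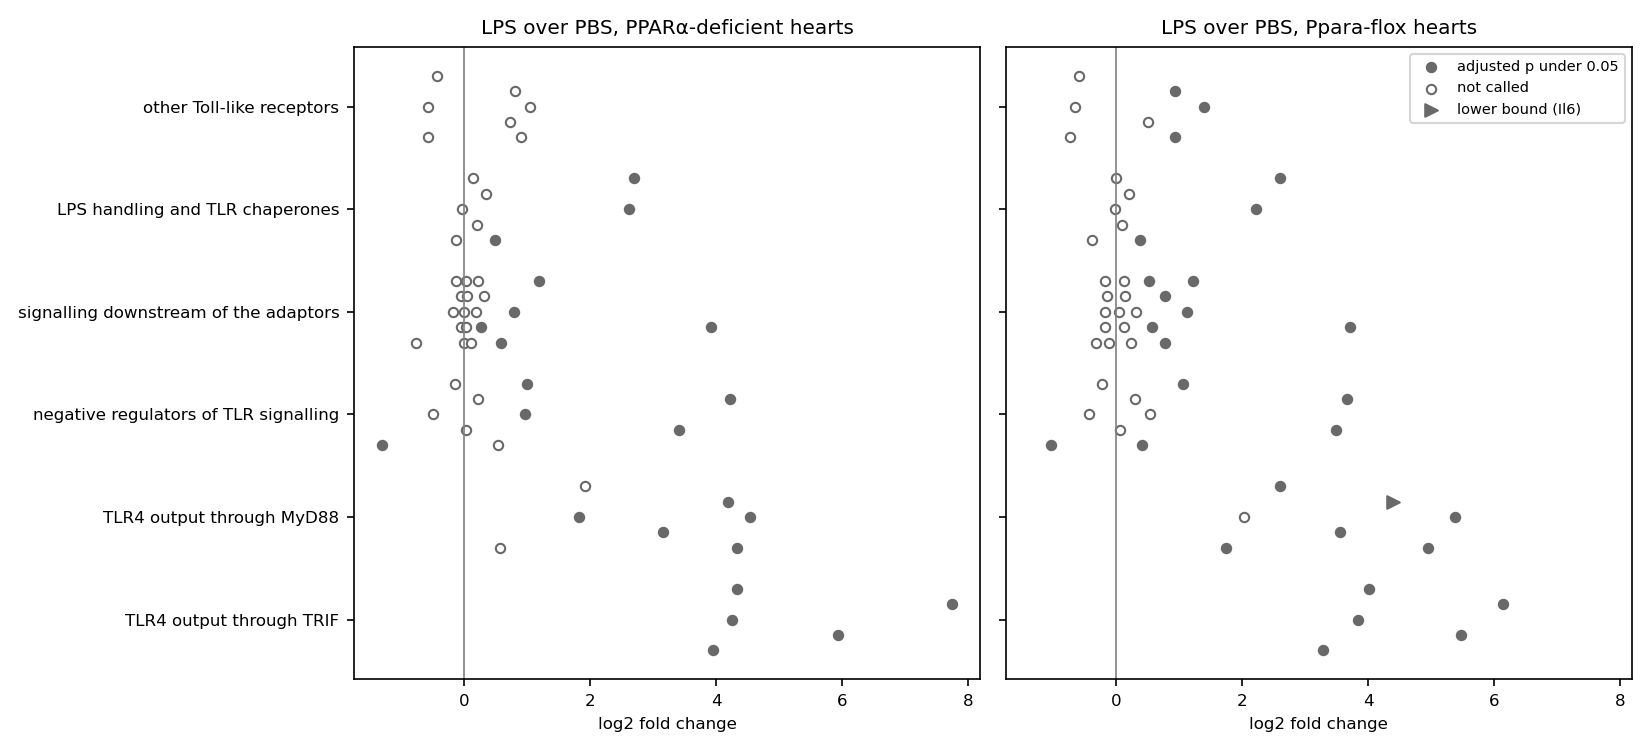
Log2 fold change after LPS over PBS of the tested genes of each of the 6 pathway lists (points) in PPARα-deficient hearts (left) and Ppara-flox hearts (right), filled where the edgeR adjusted p was under 0.05, with Il6 in Ppara-flox hearts at its lower bound (triangle). Output genes of both branches lie mostly between 2 and 8, and most signalling genes lie near 0.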

How the data were processed

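Whole-heart RNA of 16 male mice, 4 per group, was sequenced from stranded libraries, per the labels' protocols. The deposited tables hold expected counts (estimated counts) per gene symbol, whole numbers not scaled between samples, 1 table per mouse. GRCm38 is the build in the submitters' processing notes, which also list, without roles, DESeq2 1.30.1, StringTie 1.3.3b, HISAT and fastp 0.23.2. Which tool counted, with which annotation and strand setting, is not given in the sources used here. Nothing in the labels links mice across groups.

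Of 55421 table lines, 27 whose symbols a spreadsheet had made into dates were dropped, a share of 0.0644% to 0.0861% per library, and lines of the same symbol were added up. Among low values 4 occurred 12828 times, against 5290 times for 3 and 7264 times for 5, so precision follows the totals divided by 4. Positions and exon lengths came from GENCODE vM21 on GRCm38. Genes were kept by filterByExpr, scaled by TMM factors and fitted with edgeR 4.0.16 (R 4.3.3, glmQLFit, glmQLFTest) as 4 group means over 16 libraries, with 12 residual degrees of freedom and Benjamini-Hochberg adjustment over 18713 genes. A gene was called at an adjusted p under 0.05. Standard errors are the log2 fold change divided by the root of F. Limma 3.58.1 and DESeq2 1.42.0 served as alternatives. Tables and figures used Python 3.11.15 with pandas 2.3.3, numpy 2.4.6 and matplotlib 3.10.9. The model was tested on simulated data.

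The 10 genes were named throughout. Of each other list up to 4 genes with the smallest adjusted p in the LPS comparisons were named, or the 2 with the smallest p where none was called. Il6, Tnf, Il1b, Sigirr, Ripk1 and Ube2v1 were named outside this rule, after their values were seen. Nearest profiles were sought for Tlr4 and Cd14 among genes averaging at least 2 on the log2 CPM scale. Genes with predicted or clone-type symbols and genes of the mitochondrial genome were left out of this search. Genes and lists were chosen with earlier results of these data known. The alternatives were other scalings, tools, filters and thresholds, counts divided by 4, the replicate number as a block, a model of the 8 libraries of a comparison alone, leaving out each library in turn, and leaving out Ppara-flox LPS replicate 4 with PPARα-deficient LPS replicate 3. The header numbers as a block were added after seeing the data. That block only separated the higher from the lower header numbers within the PBS libraries. It could not adjust the LPS effects for the sample numbering.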

Additional observations from a re-analysis of the deposited data

Results flagged for a closer look

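In Ppara-flox LPS replicate 4, Tlr4 was at 3.49 CPM, the lowest of its group, whose other libraries were at 13.8 to 14.9 CPM. In the same library Tlr3 was at 49.4 CPM, the highest of its group, whose other libraries were at 15 to 16.2 CPM. In each case the gap to the nearest other library, divided by the range of the group, was above Dixon's critical value for 4 samples. Of 40 groups of 4 examined (10 genes in 4 groups), 2 were singled out in this way, and chance alone gives about 1 in 20.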

How the results depend on the processing

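Over 28 alternatives (27 for the interaction, which a model of 8 libraries cannot give) the count of the 10 genes called stayed at 6 or 7 in Ppara-flox hearts, at 7 or 8 in PPARα-deficient hearts, and at 0 for genotype and for the interaction. Of 1385 recomputed values of single genes, 1332 kept their direction and call, and 3 calls were lost: Tlr3 in Ppara-flox hearts without Ppara-flox LPS replicate 4 (1.00), and, at an adjusted p under 0.01, Cd14 in Ppara-flox hearts (0.76) and Ticam2 in PPARα-deficient hearts (-1.27). The other 50 changed sign and were uncalled under every setting (smallest adjusted p 0.866). Ticam2 was not tested under the strict filter of 1 CPM in 8 libraries. Counts of 5 to 36 read pairs limit Ticam2 and Ly96. The cause of the changes below was not tested.

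DESeq2 called 183 genes for genotype in PBS hearts (48 higher, 135 lower), 444 in LPS hearts (200 higher, 244 lower) and 55 for the interaction, against 81, 231 and 0 with edgeR. For genotype in LPS hearts 126 genes were called at an adjusted p under 0.01 and 141 in a fit to those 8 libraries alone. The interaction gave 4 genes under the strict filter, 4 with counts divided by 4, 5 without both PPARα-deficient LPS replicate 3 and Ppara-flox LPS replicate 4, and 0 to 4 with each library left out.

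Without those 2 libraries Ly96 was at -0.014 in PPARα-deficient and -0.054 in Ppara-flox hearts after LPS, with an interaction of 0.040, and Ticam2 was at -0.14 both for genotype in LPS hearts (-0.145) and for the interaction (-0.139). With limma-voom Ticam2 was at 0.00052 for genotype in PBS hearts.

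With each library left out in turn, Ly96 ranged from -0.089 to 0.21 after LPS in PPARα-deficient and -0.10 to 0.41 in Ppara-flox hearts. For genotype in PBS hearts Cd14 ranged from -0.043 to 0.37, Irak3 from -0.016 to 0.13, Ly96 from -0.14 to 0.35, Ticam1 from -0.19 to 0.0069, Ticam2 from -0.15 to 0.15 and Tlr3 from -0.43 to 0.0073. For genotype in LPS hearts Irak2 ranged from -0.025 to 0.24, Ly96 from -0.23 to 0.25, Ticam2 from -0.32 to 0.27 and Tlr3 from -0.36 to 0.83. For the interaction Irak2 ranged from -0.18 to 0.081, Irak3 from -0.033 to 0.16, Ly96 from -0.36 to 0.17, Ticam2 from -0.31 to 0.27, Tlr2 from -0.37 to 0.023 and Tlr3 from -0.16 to 1.03.

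Replicate numbers did not pair the mice: over 24 same-numbered pairs the deviations from group means correlated at -0.0658 to 0.0746, with 0 above 0.1, and 5 of 16 libraries correlated best with their own number. With the replicate number as a block 7 of the 10 genes were called in Ppara-flox hearts and 8 in PPARα-deficient hearts, as without it.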
